A study of Mus musculus with 12 samples.

Results

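Matrix metalloproteinases (MMPs), the related membrane protease ADAM8 and the tissue inhibitors of metalloproteinases (TIMPs) were followed in HoxB8 cells that carried CSF3R T618I, a truncated Asxl1, both or neither. The set was 8 genes chosen by symbol (Mmp8, Mmp9, Mmp25, Mmp19, Mmp14, Adam8, Timp1 and Timp2), and all 8 had a row among the 24411 symbols of the count table. HoxB8 cells are mouse bone marrow cells immortalised by Hoxb8, kept in medium with stem cell factor and estrogen, and all libraries were made 24 h after estrogen was removed. Every population carried 2 vectors, pMIG and pMICH. In Empty/Empty both vectors were empty. Empty/T618I had an empty pMIG and a pMICH with CSF3R T618I, which encodes a mutant granulocyte colony-stimulating factor receptor. Asxl1-MT2/Empty had a pMIG with Asxl1-MT2, a truncation of the chromatin regulator Asxl1, and an empty pMICH, and Asxl1-MT2/T618I had both inserts. Both inserts were overexpressed from vectors in an immortalised line, so the groups are models of added copies. Each group had 3 libraries.

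MMPs are zinc-dependent enzymes that cut collagen, gelatin and other proteins outside the cell. They are made as inactive precursors and are held in check by TIMPs. Neutrophils store several of them: Mmp8, the neutrophil collagenase, is packed mainly in secondary granules, Mmp9, the gelatinase, in tertiary granules, and Mmp25, also called leukolysin, is a membrane-anchored MMP of the same cells. These genes are turned on as granulocytes mature. Adam8 is a membrane protease of myeloid cells that sheds surface proteins. Mmp14 is a membrane MMP that activates the precursor of Mmp2, for which it uses Timp2 as an adaptor.

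Library totals ran from 9341984 to 10252291 counts, and 11578 symbols passed the filter on low counts. Levels are counts scaled to a common library total (CPM) on TMM-scaled library sizes, given per library in the order A, B, C or as mean ± SD of 3 libraries. Asxl1 lay at 117 to 125 CPM in the Empty/Empty libraries, 133 to 167 in those of Empty/T618I, 1678 to 1833 in those of Asxl1-MT2/Empty and 919 to 1086 in those of Asxl1-MT2/T618I. Whether reads of the inserts were counted to the mouse genes is not given in the sources used here. Socs3, a feedback gene of cytokine receptor signalling, lay at 11.9 to 13.8 CPM with empty vectors, 10.4 to 11.1 in Asxl1-MT2/Empty, 151 to 176 in Empty/T618I and 196 to 264 with both inserts. For the library with the title Empty/Empty 3, the genotype label names the T618I vector instead. All 3 Empty/Empty libraries had low Socs3 and low Mmp8, and each was left out in turn. Kit, the stem cell factor receptor of progenitors, was at 302 to 350 CPM in Empty/Empty, and all 10 stem and progenitor markers checked had counts in every group. Nothing in the labels says that libraries came from separate cultures, so p-values reflect only how far these libraries vary, and that variation may be technical. In RNA of whole cultures, more cells of a type and more RNA per cell cannot be told apart.

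Promoter sequence, taken as the 250 bases before the RefSeq transcription start, is shown for Mmp8, Adam8 and Timp2. These 3 genes rose in both T618I groups. RefSeq sequence on GRCm38.p6 was found for 6 of the 8 genes, and Mmp9 and Mmp19 had no match. Consensus letters of 5 factor families were searched on both strands. They were TTCNNNGAA for STAT factors, TTGCNNAA for the C/EBP factors of granulocytes, GGGNNTTCC for NF-kB and TGANTCA for AP-1. The fifth was AGATAA, the site of GATA factors. Capitals mark a match. The sequences run 5′ to 3′ on the strand of the gene. Mmp8 lies at chr9:7558179-7558428 on the + strand, Adam8 at chr7:139992563-139992812 on the - strand and Timp2 at chr11:118355412-118355661 on the - strand.
Mmp8: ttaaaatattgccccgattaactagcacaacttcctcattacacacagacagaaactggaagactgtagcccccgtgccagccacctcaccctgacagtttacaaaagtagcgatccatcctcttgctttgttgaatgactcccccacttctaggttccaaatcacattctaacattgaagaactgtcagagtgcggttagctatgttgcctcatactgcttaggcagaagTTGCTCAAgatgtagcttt
Adam8: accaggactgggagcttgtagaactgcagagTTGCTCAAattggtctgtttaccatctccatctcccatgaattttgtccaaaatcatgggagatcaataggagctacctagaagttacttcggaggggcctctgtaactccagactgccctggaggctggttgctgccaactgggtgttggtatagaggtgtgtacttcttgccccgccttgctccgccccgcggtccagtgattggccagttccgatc
Timp2: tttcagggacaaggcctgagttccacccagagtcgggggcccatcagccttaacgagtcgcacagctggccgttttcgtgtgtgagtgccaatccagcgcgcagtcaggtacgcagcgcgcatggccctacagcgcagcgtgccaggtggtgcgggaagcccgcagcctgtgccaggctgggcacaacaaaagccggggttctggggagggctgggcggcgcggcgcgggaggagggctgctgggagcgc

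Mmp8 and Adam8 held the same 8 letters, TTGCTCAA, a match of the C/EBP consensus, at bases -19 to -12 in Mmp8 and -219 to -212 in Adam8, counted back from the start. No match of the other 4 motifs was found in either window, and the matches overlapped no other motif. Timp2, Mmp14, Mmp25 and Timp1 held none of the 5 in these windows. The C/EBP consensus was in 9.56% of the 32851 RefSeq promoters searched. These exact 8 letters were in 0.868% (285 promoters), but they were picked after the match was seen, so that share tests nothing. The other motifs were in 7.02% (STAT), 6.75% (AP-1), 4.98% (NF-kB) and 9.99% (GATA) of the promoters. A match describes letters and not a bound site. The Timp2 window held 68.0% G or C, against 44.8% for Mmp8, 52.8% for Adam8 and a median of 52.4%. By the GENCODE gene positions given below, Timp2 starts at base 118355740, so its window lies inside that gene. Mmp8 starts there at base 7558456, after the end of its window at 7558428.

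Mmp8, Mmp9, Adam8 and Timp2 were low without T618I, intermediate with T618I alone and highest with both inserts. With T618I alone, 5 of the 7 tested genes rose (Mmp8, Mmp9, Mmp25, Adam8 and Timp2) and Mmp14 fell. Of all genes tested, 17.6% rose and 15.9% fell. The Mmp25 call was lost without Empty/T618I library B, which held 15 of its 19 counts in that group, and the Mmp14 call without Empty/Empty library B. Mmp25 passed the filter on low counts only through the Asxl1-MT2/T618I libraries, so it had to be high there, and it is left out of counts of genes higher in that group. When Asxl1-MT2/T618I was set against Empty/T618I, all 6 other tested genes rose, against 25.4% of all genes tested. Asxl1-MT2 without T618I moved none of the 7 past the threshold. T618I added to Asxl1-MT2 cells raised 5 of the 6 (all but Mmp14), with 26.9% of all genes tested rising, and the same 5 were higher in Asxl1-MT2/T618I than in Empty/Empty, where 27.5% of all genes tested were higher. The threshold was an adjusted p under 0.05 in the quasi-likelihood test of edgeR, adjusted over all genes tested. With library totals in place of TMM factors, the share of higher genes among those called between the T618I groups went from 57.8% to 39.2%, and the 6 genes still rose. The comparisons share groups of libraries, so their counts are not independent of each other. Timp1, at 12 counts over the 12 libraries, was not tested.

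**Figure D1:**
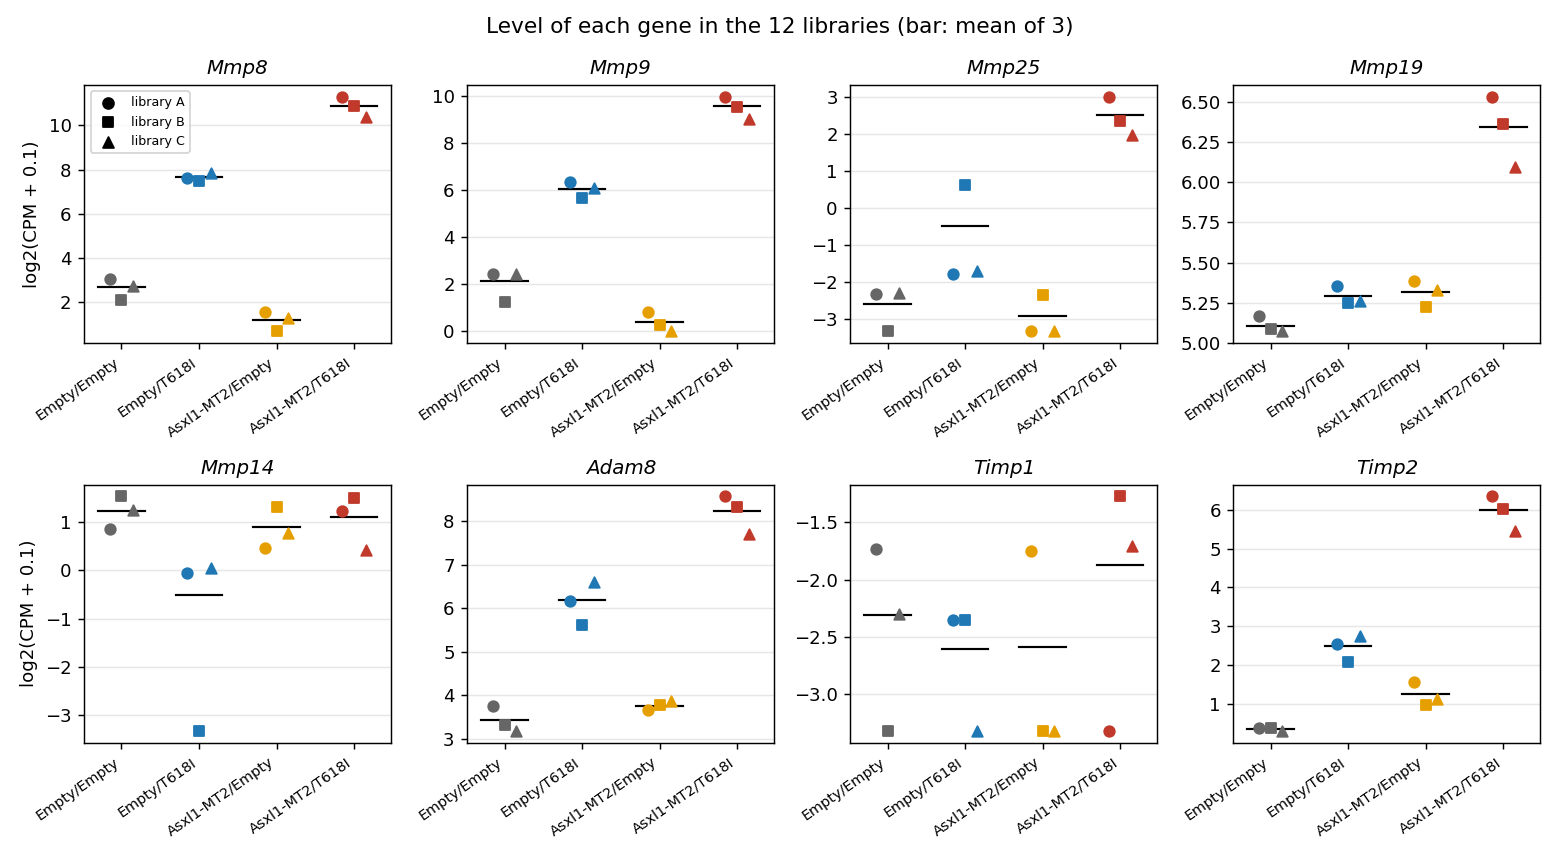
Level of each gene in the 12 libraries, as log2 of CPM plus 0.1, with libraries A, B and C as circles, squares and triangles and the mean as a bar. The vertical scale differs between genes. For Mmp8, Mmp9, Adam8 and Timp2 all 3 Asxl1-MT2/T618I libraries lie above the 9 others, while Mmp14 is lowest in Empty/T618I.

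Mmp8 (chr9:7558456-7568485, + strand, GRCm38, 10 blocks of exons merged over all its transcripts) encodes the collagenase that cuts fibrillar collagen. Its level was 8.05, 4.08 and 6.40 CPM in the Empty/Empty libraries, 195, 180 and 229 in those of Empty/T618I, 2.77, 1.48 and 2.30 in those of Asxl1-MT2/Empty and 2536, 1900.5 and 1323 in those of Asxl1-MT2/T618I. No 2 groups overlapped, and the order from low to high was Asxl1-MT2/Empty, Empty/Empty, Empty/T618I, Asxl1-MT2/T618I. T618I alone raised Mmp8 32.6-fold (log2 fold change 5.02 ± 0.247 SE, edgeR adjusted p = 1.46e-10). Adding Asxl1-MT2 to T618I raised it a further 9.54-fold (3.25 ± 0.195 on the log2 scale, edgeR adjusted p = 2.47e-09). The lower level in Asxl1-MT2/Empty than in Empty/Empty (-1.49 ± 0.386) did not pass the test (edgeR adjusted p = 0.0580), so these neighbours in the order were not separated. In Asxl1-MT2/T618I library A, Mmp8 took 0.233% of all counts and ranked 19 among all symbols. It ranked 50 in library C of that group and between 8839 and 9684 in the Empty/Empty libraries.

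Mmp9 (chr2:164940780-164955850, + strand, 15 merged exon blocks) encodes the gelatinase that cuts denatured collagen and collagen of basement membranes. It measured 5.34, 2.29 and 5.36 CPM in the Empty/Empty libraries, 81.5, 51.4 and 68.5 in those of Empty/T618I, 1.68, 1.09 and 0.897 in those of Asxl1-MT2/Empty and 1015, 749.7 and 529 in those of Asxl1-MT2/T618I. Its groups lay apart in the same order as those of Mmp8. The rise with T618I alone was 15.5-fold (3.96 ± 0.288 on the log2 scale, edgeR adjusted p = 1.19e-08), and Asxl1-MT2 on top of T618I raised Mmp9 a further 11.4-fold (3.51 ± 0.218, edgeR adjusted p = 3.81e-09). The difference between Asxl1-MT2/Empty and Empty/Empty was -1.81 ± 0.518 and did not pass (edgeR adjusted p = 0.0968).

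For the comparison of Asxl1-MT2/Empty with Empty/Empty, edgeR called 0 of the 7 genes and 1.86% of all genes tested. At an unadjusted p under 0.05 there were 3 (Mmp8, Mmp9 and Timp2). DESeq2 called 2 (Mmp8 and Mmp9) and limma-voom 0. Both were also called by edgeR without a filter on low counts, with a block by library letter and in these 2 groups alone. Mmp8 was called with library totals in place of TMM factors. Mmp8 and Mmp9 lay at summed counts of 66 and 37 in Asxl1-MT2/Empty, so these low levels rest on few reads. A call for Mmp8 appeared when any of 5 libraries was left out (Empty/Empty B, Empty/T618I B or C, Asxl1-MT2/T618I A or C), and for Mmp9 when either of the last 2 was left out.

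Mmp25 (chr17:23628311-23645277, - strand, 8 merged exon blocks), the membrane-anchored MMP of neutrophils, was close to the counting floor outside Asxl1-MT2/T618I. It had 1, 0 and 1 counts in the Empty/Empty libraries, 2, 15 and 2 in Empty/T618I, 0, 1 and 0 in Asxl1-MT2/Empty and 75, 48 and 37 in Asxl1-MT2/T618I. The 3 Asxl1-MT2/T618I libraries, at 3.82 to 7.96 CPM, lay above the other 9. Mmp25 reached the 1 CPM that the filter asks of 3 libraries in these 3 and in 1 library of Empty/T618I, so its level in Asxl1-MT2/T618I (5.60 ± 2.13 CPM, against 0.611 ± 0.711 in Empty/T618I) is given as a description with no test. The ratio of summed counts in Asxl1-MT2/T618I to those in Asxl1-MT2/Empty was 169, also as a description. Empty/T618I exceeded Empty/Empty in summed counts 9.26-fold, with an exact 95% interval of 2.23 to 82.0 that covers counting error only. Of the 19 counts in Empty/T618I, 15 came from library B. That call (2.99 ± 1.09, edgeR adjusted p = 0.0440) was lost when library B of Empty/T618I was left out (1.42, edgeR adjusted p = 0.417), without any of the Empty/Empty libraries, without Asxl1-MT2/Empty B or C, and with limma-voom.

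Mmp19 (chr10:128790910-128800824, + strand, 9 merged exon blocks), an MMP of broad tissue range, was present in every library. Its level was 35.7, 33.8 and 33.5 CPM in the Empty/Empty libraries, 40.9, 37.9 and 38.3 in those of Empty/T618I, 41.7, 37.3 and 40.1 in those of Asxl1-MT2/Empty and 92.6, 82.4 and 68.4 in those of Asxl1-MT2/T618I. The Asxl1-MT2/T618I libraries lay above all others, and the groups with 1 insert overlapped each other. Neither insert alone moved Mmp19 past the threshold: T618I gave 0.18 ± 0.105 (edgeR adjusted p = 0.201) and Asxl1-MT2 0.21 ± 0.105 (edgeR adjusted p = 0.506). With both, Mmp19 was 2.08-fold above Empty/T618I (1.06 ± 0.101, edgeR adjusted p = 3.60e-07) and 2.04-fold above Asxl1-MT2/Empty (1.03 ± 0.101, edgeR adjusted p = 2.18e-07). Exons of Mmp19 overlap those of Tmem198b on the other strand over 789 bases, and the strand setting of the counting is not given, so reads of the 2 genes may have been mixed. Tmem198b rose by 0.94 on the log2 scale in the comparison with Empty/T618I, from 23.1 ± 0.805 to 44.4 ± 8.23 CPM.

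Mmp14 (chr14:54431612-54445364, + strand, 11 merged exon blocks), the membrane MMP that activates the Mmp2 precursor, followed another course at a low level. Its counts were 17, 28 and 22 in the Empty/Empty libraries, 9, 0 and 9 in those of Empty/T618I, 13, 24 and 16 in those of Asxl1-MT2/Empty and 21, 26 and 12 in those of Asxl1-MT2/T618I. The 3 Empty/T618I libraries, at 0 to 0.939 CPM, lay below the other 9, and the other 3 groups overlapped. A count of 0 allows up to 3 counts. Mmp14 fell by 1.91 ± 0.543 on the log2 scale with T618I alone (edgeR adjusted p = 0.0114) and was 1.78 ± 0.553 higher in Asxl1-MT2/T618I than in Empty/T618I (edgeR adjusted p = 0.0153). The first call did not hold when Empty/Empty library B was left out (-1.30, edgeR adjusted p = 0.0527), the second without Asxl1-MT2/T618I library B (1.17, edgeR adjusted p = 0.0718). Asxl1-MT2/T618I did not pass the test against Empty/Empty (-0.13 ± 0.441, edgeR adjusted p = 0.822). Empty/Empty library B, highest in Mmp14 at 2.78 CPM, also had the highest Col1a1 (1.99 CPM) and Col1a2 (2.68 CPM), collagen chains of stromal cells. Asxl1-MT2/Empty library B, the next highest within the groups without T618I at 2.37 CPM of Mmp14, had 0.197 CPM of each of them. Of the 9 stromal markers checked, 7 were seen in Empty/Empty and 6 in Empty/T618I, and their sum was 19.7 to 28.5 and 22.2 to 25.1 CPM. Most of it was Pdgfrb and Thy1, and Pdgfra had 0 counts in all 12 libraries. Their part in the Mmp14 result was not tested.

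Adam8 (chr7:139978932-139992562, - strand, 21 merged exon blocks), the shedding protease whose promoter shares 8 letters with that of Mmp8, rose with T618I. It measured 13.4, 9.94 and 8.98 CPM in the Empty/Empty libraries, 71.4, 48.8 and 97.3 in those of Empty/T618I, 12.6, 13.5 and 14.5 in those of Asxl1-MT2/Empty and 379.8, 319.96 and 208 in those of Asxl1-MT2/T618I. Empty/Empty and Asxl1-MT2/Empty overlapped and were not separated by the test (0.33 ± 0.288, edgeR adjusted p = 0.822). The rise was 6.71-fold with T618I alone (2.75 ± 0.254, edgeR adjusted p = 2.09e-07) and a further 4.18-fold when Asxl1-MT2 was added (2.06 ± 0.211, edgeR adjusted p = 7.23e-07). Library C was the highest of the 3 in Empty/T618I and the lowest in Asxl1-MT2/T618I.

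The inhibitor Timp2 (chr11:118301069-118355740, - strand, 6 merged exon blocks) rose with the proteases. Its level was 1.21, 1.19 and 1.13 CPM in the Empty/Empty libraries, 5.77, 4.10 and 6.57 in those of Empty/T618I, 2.87, 1.87 and 2.10 in those of Asxl1-MT2/Empty and 81.1, 64.4 and 43.8 in those of Asxl1-MT2/T618I. All 4 groups lay apart, with Empty/Empty lowest, whereas Mmp8 and Mmp9 were lowest in Asxl1-MT2/Empty. T618I alone raised Timp2 4.59-fold (2.20 ± 0.342, edgeR adjusted p = 7.19e-05), and adding Asxl1-MT2 raised it a further 11.5-fold (3.53 ± 0.211, edgeR adjusted p = 2.47e-09). Asxl1-MT2 alone gave 0.94 ± 0.401, which did not pass (edgeR adjusted p = 0.374). Timp1 (chrX:20870166-20874735, + strand), an inhibitor of secreted MMPs that lies within an intron of Syn1, had 3 counts in the Empty/Empty libraries, 2 in those of Empty/T618I, 2 in those of Asxl1-MT2/Empty and 5 in those of Asxl1-MT2/T618I. Between Asxl1-MT2/T618I and Empty/T618I the ratio of Timp1 counts was 2.66, with an exact 95% interval of 0.435 to 27.9, so no difference was detectable at this depth.

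**Figure D2:**
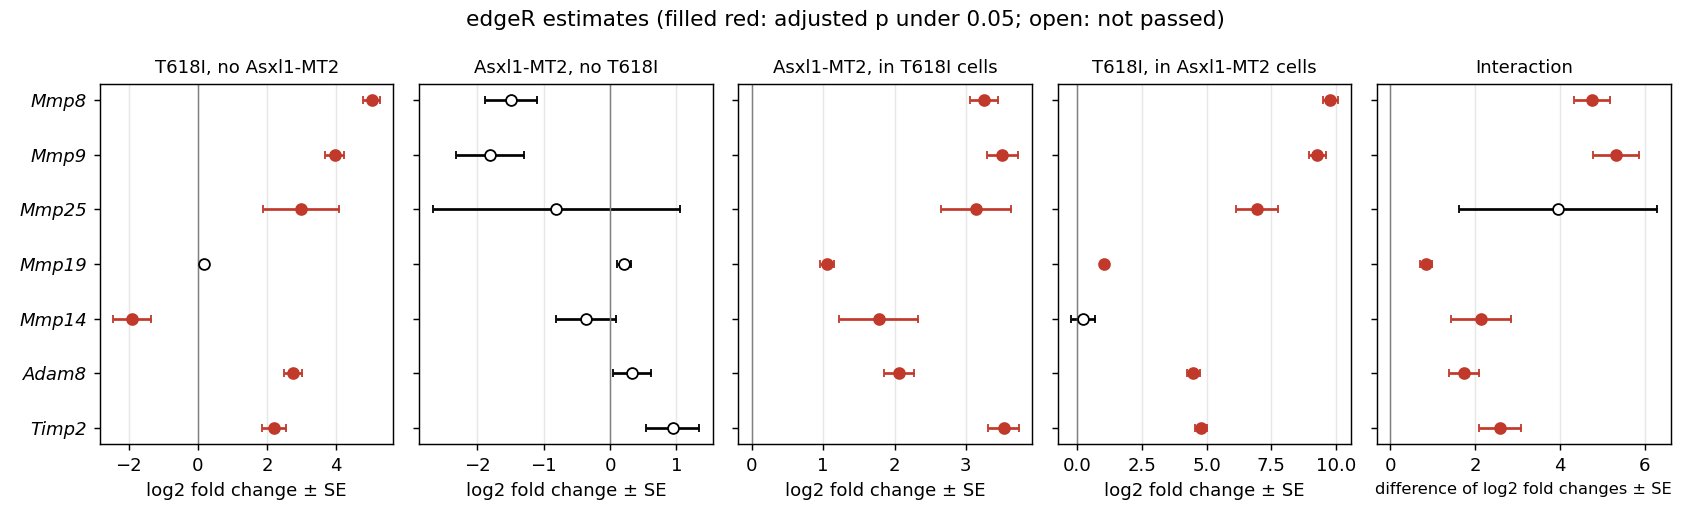
Fitted log2 fold change of each tested gene with its SE in 4 comparisons, and in the last panel the interaction, the difference between the Asxl1-MT2 effect with and without T618I. Filled red points have an edgeR adjusted p under 0.05. All points for Asxl1-MT2 without T618I are open, and all for Asxl1-MT2 in T618I cells are filled and above 0, that of Mmp25 after a filter it passed only through Asxl1-MT2/T618I.

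The effect of Asxl1-MT2 differed with T618I for 6 of the 7 tested genes, all in the upward direction, against 14.1% of all genes tested. Upward differences were also called for all 15 tested genes of secondary and tertiary granules (median 2.91) and all 7 neutrophil markers (median 2.24). They were called for 11 of 14 shed surface proteins, 6 of 7 monocyte and macrophage markers and 0 of 13 mast cell and basophil markers. The difference of log2 fold changes was 5.32 ± 0.542 for Mmp9 and 4.75 ± 0.419 for Mmp8 (edgeR adjusted p = 1.03e-05 and 3.54e-06). Timp2 followed at 2.58 ± 0.497 (edgeR adjusted p = 0.00148), Adam8 at 1.74 ± 0.356 (edgeR adjusted p = 0.00243) and Mmp19 at 0.85 ± 0.146 (edgeR adjusted p = 0.000604). On the CPM scale, multiplying the effects of the single inserts would place Mmp8 at 71.1 CPM in Asxl1-MT2/T618I, where 1919.5 ± 607 was measured. The corresponding products were 18.9 CPM for Mmp9 (measured 765 ± 244), 10.6 for Timp2 (63.1 ± 18.7), 91.0 for Adam8 (303 ± 87.1) and 45.1 for Mmp19 (81.1 ± 12.2). The Mmp14 interaction (2.14 ± 0.716, edgeR adjusted p = 0.0444) was lost in 7 of the 12 fits that left out 1 library, among them Empty/T618I library B, which has its 0 count. Mmp25 did not pass with edgeR (3.95 ± 2.34, adjusted p = 0.253), with 2 and 1 summed counts in the groups without T618I. It passed with limma-voom (adjusted p = 0.0239). That call uses the group through which Mmp25 passed the filter, so it is not read as a result.

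Within Asxl1-MT2/T618I, library A was highest and library C lowest for Mmp8, Mmp9, Mmp25, Mmp19, Adam8 and Timp2, and library B was highest for Mmp14. The ratio of library A to library C was 1.92 for Mmp8 and for Mmp9, 2.08 for Mmp25, 1.82 for Adam8, 1.85 for Timp2 and 1.35 for Mmp19. All 7 neutrophil markers had the same order of libraries, with ratios of 1.67 for Cxcr2, a chemokine receptor, and 1.58 for S100a8, a calprotectin subunit. The ratio was 1.75 for Csf3r, whose counts may include reads of the insert. Genes of secondary and tertiary granules were divided. Of 15 tested, 9 had this order and 3 the opposite one, with ratios of 0.893 for Ngp, 0.683 for Camp and 0.542 for Fcnb, while Ltf had 1.04. The ratio was 0.725 for Mpo, the peroxidase of primary granules, and 0.718 for Kit. Of the 10 stem and progenitor markers, Mpo and Kit among them, 5 had the opposite order and 1 the same. Asxl1 had a ratio of 1.18 and Hoxb8 of 1.05. The same order of libraries was seen in 59.1% of the 2939 genes that were higher in Asxl1-MT2/T618I than in Empty/T618I. Among the 334 of them higher by at least 2 on the log2 scale the share was 67.4%, and 26.3% among all genes tested. The rises were present without any 1 of these libraries: over the fits that left out 1 library in turn, the log2 difference from Empty/T618I lay between 3.001 and 3.44 for Mmp8, 3.25 and 3.70 for Mmp9, and 1.83 and 2.30 for Adam8.

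Levels of different genes were compared per kilobase of exon, with exon lengths from GENCODE M21. In Asxl1-MT2/T618I, Mmp8 was the most abundant of the 8 genes at 792 ± 250.2 CPM per kb, then Mmp9 at 216 ± 68.8, Adam8 at 65.2 ± 18.8, Mmp19 at 23.0 ± 3.44 and Timp2 at 16.2 ± 4.80. In Empty/Empty, Mmp19 led at 9.72 ± 0.341 CPM per kb, above Mmp8 at 2.55 ± 0.824, Adam8 at 2.32 ± 0.500 and Mmp9 at 1.22 ± 0.500. Mmp8 and Adam8 did not differ beyond their spread there. The ratio of Mmp8 to Mmp9 per kb was 3.64, 3.70 and 3.65 in the Asxl1-MT2/T618I libraries, although the level of each differed 1.92-fold between libraries A and C. Mmp9 exceeded its inhibitor Timp2 per kb 11.5- to 15.6-fold in Empty/T618I and 12.8- to 13.8-fold in Asxl1-MT2/T618I. The Mmp9 to Timp2 ratio was 2.11 to 5.20 in Empty/Empty, and Timp2 exceeded Mmp9 in all 3 Asxl1-MT2/Empty libraries, where the ratio was 0.472 to 0.645. These are ratios of RNA, and protein was not measured.

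**Figure D3:**
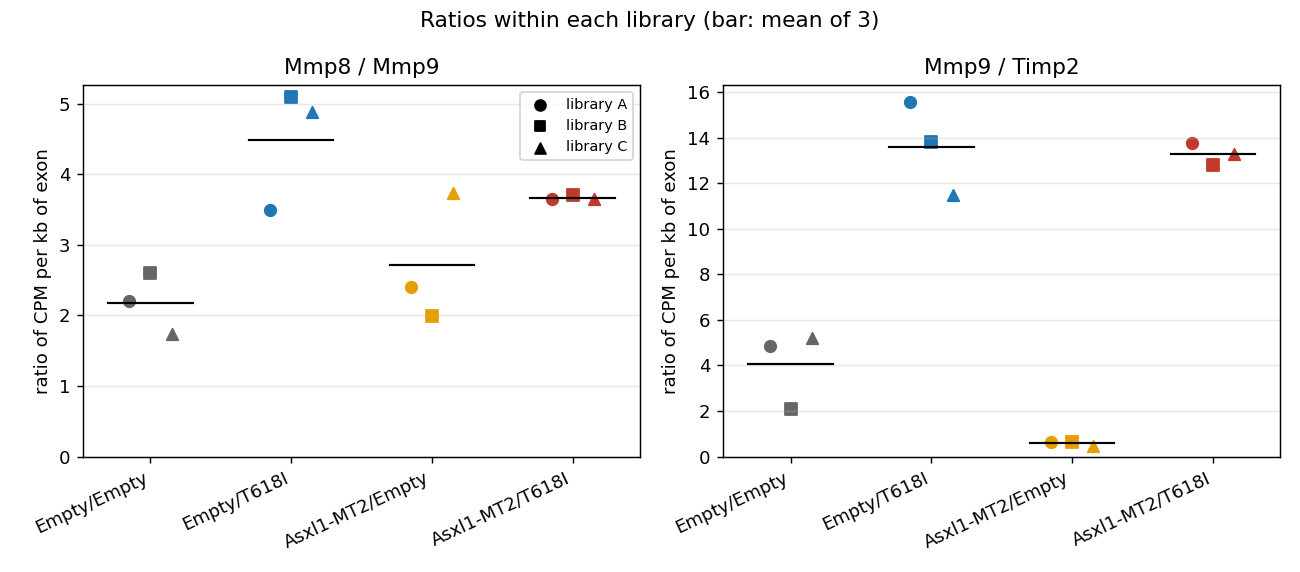
Ratio of Mmp8 to Mmp9 (left) and of Mmp9 to Timp2 (right) within each library, both as CPM per kb of exon on a linear axis from 0, with libraries A, B and C as circles, squares and triangles and the mean as a bar. The Asxl1-MT2/T618I libraries lie between 3.64 and 3.70 on the left, and the Asxl1-MT2/Empty libraries lie below 1 on the right.

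Across the 12 libraries the log2 CPM of Mmp8 and Mmp9 ran together (Pearson r = 0.995), and Adam8 and Timp2 followed (r = 0.970 and 0.907 with Mmp8). Mmp14 stood apart, with r from -0.207 to 0.217 against the other 6. These values mostly restate the 4 group means and the shared library scaling, and they are given as descriptions. The tested genes most like Mmp8 were Fpr1, a receptor for bacterial formyl peptides (r = 0.997), Ifitm6 (0.997) and Cmah (0.996). Closest to Mmp9 were Stfa2, a stefin of a multigene family whose reads are uncertain (0.997), Fpr1 (0.996) and Bst1 (0.996). Adam8 was nearest to Myadm (0.996), Selplg, the ligand of P-selectin (0.996), and Bhlhe40 (0.995), and Timp2 to Qsox1 (0.998), Smox (0.996) and Lsp1 (0.994). For Mmp19 the nearest were Tmem127, Cap1 and Rbm47 (0.990 to 0.991), for Mmp25 Nudt4, Lrrc25 and D1Ertd622e (0.968 to 0.972), and for Mmp14 Cass4, Rnf217 and Nrg1 (0.890 to 0.90). Fpr1 had 0.270 ± 0.0619 CPM with empty vectors, 8.55 ± 1.04 in Empty/T618I, 0 in all 3 Asxl1-MT2/Empty libraries and 89.9 ± 23.4 in Asxl1-MT2/T618I.

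Mmp8 lies in a cluster of MMP genes on chromosome 9, and 3 other genes of it passed the filter. Mmp27 begins 2910 bases after the end of Mmp8 and had 12, 39, 6 and 95 counts summed over the groups (neither insert, T618I alone, Asxl1-MT2 alone, both), against 61240 counts of Mmp8 in all libraries. Mmp12, the macrophage elastase, had 5, 7, 0 and 131 counts in the same order of groups. Mmp13, a collagenase, had 1, 10, 0 and 75 counts. All 3 passed the filter only through the Asxl1-MT2/T618I libraries, so their higher level there is given with no test. Mmp1a, Mmp1b, Mmp20 and Mmp7 had 0 counts, and Mmp3 and Mmp10 had 2 each. Near Mmp9, Slc12a5 begins 4996 bases after its end and went from 0.948 ± 0.793 CPM in Empty/T618I to 3.88 ± 1.40 in Asxl1-MT2/T618I, where alone it reached 1 CPM in more than 1 library. Tubgcp2, 748 bases from Adam8, was at 70.7 ± 1.52 and 70.8 ± 3.21 CPM in these groups and did not pass the test.

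Of 18 other MMP genes, 5 passed the filter. Mmp12, Mmp13, Mmp27 and Mmp2 did so only through Asxl1-MT2/T618I, so no count or median of rises in that group is given for them. Mmp2, the gelatinase that Mmp14 activates, had 0.992 ± 0.244 CPM with T618I alone and 2.30 ± 0.706 with both inserts. Mmp24, the fifth, was at 13.1 ± 2.01 and 13.9 ± 1.49 CPM in these groups and did not pass the test. With T618I alone 1 of the 5 rose, against 17.6% of all genes tested. It was Mmp13 (edgeR adjusted p = 0.0499), a call lost in 9 of the 12 fits that left out 1 library. Lyz2, a lysozyme of macrophages and neutrophils, was at 6.71 CPM in Empty/Empty library C and 5.84 in Empty/T618I library C and at most 0.199 in the other 10. Mmp12, at 0.516 and 0.522 CPM in those 2 libraries, had at most 0.191 in the other libraries of their groups. In Asxl1-MT2/T618I, where Mmp12 was at 1.59, 6.16 and 5.89 CPM, Lyz2 had 0 counts.

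**Figure D4:**
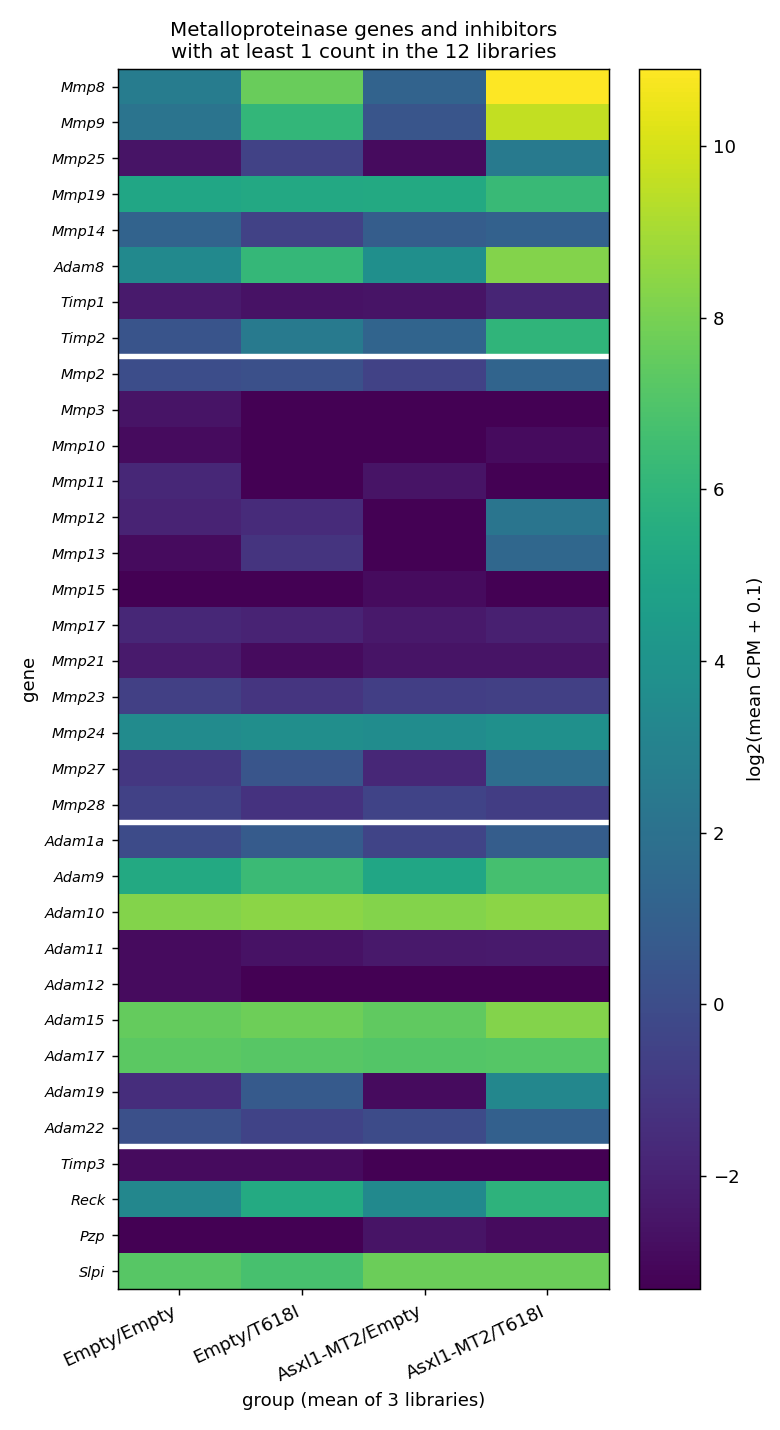
Mean level of each gene in each group, as the colour of log2 of CPM plus 0.1, for the 8 genes, the other MMPs, the other ADAM proteases and the other inhibitors that had at least 1 count. Colours are to be compared along a row, since CPM is not divided by gene length. Mmp8, Mmp9, Adam8 and Timp2 are brightest in the last column, and Adam10 and Adam17 keep nearly the same colour across groups.

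Among 13 other ADAM proteases, 7 passed the filter. Adam10 and Adam17, the sheddases that most cells use, were at 348 ± 20.3 and 151 ± 17.6 CPM in Empty/T618I and 344 ± 4.90 and 143 ± 5.26 in Asxl1-MT2/T618I, and neither passed the test there or with T618I alone. With T618I alone, Adam19 rose by 2.43 ± 0.551 on the log2 scale and Adam9 by 1.07 ± 0.109 (edgeR adjusted p = 0.00228 and 6.43e-07). When Asxl1-MT2/T618I was compared with Empty/T618I, 4 of 7 rose (Adam19, Adam22, Adam15 and Adam9), with a median of 0.30 over the 7, against 25.4% and 0.01 over all genes tested. Adam19 went from 1.35, 1.91 and 1.25 CPM to 8.60, 9.71 and 10.5 (2.66 ± 0.311, edgeR adjusted p = 3.23e-06). The Adam9 call in that comparison was lost with library totals in place of TMM factors. Of 19 ADAMTS genes, proteases with thrombospondin repeats, only Adamts3 and Adamts10 were tested, and Adamts10 rose by 0.80 ± 0.132 between the T618I groups (edgeR adjusted p = 0.000123).

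The other inhibitors with enough counts were Reck, a membrane-anchored inhibitor of MMPs, and Slpi, which inhibits neutrophil elastase. Reck had 11.3, 9.05 and 8.46 CPM in the Empty/Empty libraries, 41.9, 50.1 and 33.0 in those of Empty/T618I, 13.2, 8.98 and 9.78 in those of Asxl1-MT2/Empty and 68.3, 57.4 and 52.9 in those of Asxl1-MT2/T618I. It rose by 2.12 ± 0.174 with T618I alone (edgeR adjusted p = 5.00e-08) and was a further 0.51 ± 0.149 higher with Asxl1-MT2 (edgeR adjusted p = 0.0102), the second call being lost without Empty/T618I library C or Asxl1-MT2/T618I library A. Slpi fell by 0.48 ± 0.156 with T618I alone (edgeR adjusted p = 0.0233, lost in 3 of the fits that left out 1 library) and rose by 0.97 ± 0.155 when Asxl1-MT2 was added (edgeR adjusted p = 9.02e-05). Timp3 had too few counts to test, and Timp4 had 0.

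Of 11 tested genes of MMP activation and the plasmin system, 4 rose and 4 fell with T618I alone (17.6% and 15.9% of all genes tested). Between the T618I groups 3 rose, near the 25.4% of all genes, with a median log2 fold change of 0.11 (0.01 over all genes). Furin, which cuts the precursors of membrane MMPs and ADAM proteases, went from 95.3 ± 8.13 CPM in Empty/Empty to 318 ± 95.6 in Empty/T618I (1.74 ± 0.175, edgeR adjusted p = 5.80e-07). Serpine2, an inhibitor of plasminogen activators and thrombin, went from 1.58 ± 0.247 to 89.6 ± 11.9 CPM (5.81 ± 0.190, edgeR adjusted p = 1.06e-12). Furin and Serpine2 did not pass when Asxl1-MT2/T618I was set against Empty/T618I. Plaur, the urokinase receptor, and Plau, urokinase itself, rose there by 1.37 ± 0.110 and 1.14 ± 0.223 (edgeR adjusted p = 4.91e-08 and 0.000534).

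Among 13 tested binding partners and traffic genes, 4 rose and 3 fell with T618I alone, where 17.6% of all genes rose and 15.9% fell, and the median log2 fold change was -0.04 (0.00 over all genes). Between the T618I groups 8 rose and none fell, against 25.4% and 18.5% of all genes, with a median of 0.53 (0.01 over all genes). Lcn2, the lipocalin that binds Mmp9, measured 359, 260 and 296.5 CPM in the Empty/Empty libraries, 927, 766 and 829 in those of Empty/T618I, 415, 329 and 298 in those of Asxl1-MT2/Empty and 3990, 3423 and 2967 in those of Asxl1-MT2/T618I. It rose by 1.46 ± 0.139 with T618I alone and by a further 2.04 ± 0.140 with Asxl1-MT2 (edgeR adjusted p = 2.95e-07 and 1.04e-08). Itgam and Itgb2, the chains of the integrin Mac-1, rose by 2.50 ± 0.124 and 1.60 ± 0.118 in the second comparison (edgeR adjusted p = 9.29e-10 and 1.93e-08). Cd44, a surface docking site of Mmp9, went from 193 ± 8.39 CPM in Empty/T618I to 411 ± 43.7 in Asxl1-MT2/T618I.

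Other genes of secondary and tertiary granules moved in parallel in part. Over all genes tested, 17.6% rose and 15.9% fell with T618I alone, and 25.4% rose and 18.5% fell between the T618I groups. Of 15 granule genes tested, 9 rose and 2 fell with T618I alone (median log2 fold change 1.37, against 0.00 over all genes tested). All 15 rose between the T618I groups (median 2.92, against 0.01). Ltf, lactoferrin, had 91.8 ± 44.0 CPM with empty vectors and 97.7 ± 26.4 with T618I alone, and rose to 1002 ± 50.3 in Asxl1-MT2/T618I (3.36 ± 0.291, edgeR adjusted p = 1.09e-07). Fcnb, a ficolin, fell by 4.13 ± 0.284 with T618I alone (edgeR adjusted p = 6.05e-09), the opposite direction to Mmp8. All 7 neutrophil markers in the table rose in the same 2 comparisons, and their sum ran from 964 to 1313 CPM in the Empty/Empty libraries, 2664 to 3519 in those of Empty/T618I, 1008 to 1343 in those of Asxl1-MT2/Empty and 11708 to 18406 in those of Asxl1-MT2/T618I. These markers include Csf3r, the gene of the T618I insert, so its counts and the sum may include insert reads. Of 13 mast cell and basophil markers, 13 rose with T618I alone, with a sum of 1157 to 1352 CPM in Empty/Empty and 3560 to 6514 in Empty/T618I, and 7 fell between the T618I groups. Of 7 tested monocyte and macrophage markers, 2 rose and 2 fell with T618I alone and 6 rose between the T618I groups, and the sum over all 13 markers of that list was 171 to 188 CPM in Empty/T618I and 432 to 586 in Asxl1-MT2/T618I. Ly6c2, Irf8 and Csf1r had the largest of these 6 rises, and Adgre1 and Cd68 were higher with both inserts than in Empty/Empty. The complement genes C1qa, C1qb and C1qc, other macrophage markers of the list, were not tested and were at most 0.207 CPM in Asxl1-MT2/T618I. Of 10 stem and progenitor markers, 6 fell and 2 rose with T618I alone, Flt3 among the 6 after a filter it passed only through Empty/Empty. The sum of the 10 was 30231 to 38943 CPM in Empty/Empty, 14406 to 16605 in Empty/T618I, 34715 to 38356 in Asxl1-MT2/Empty and 12555 to 16641 in Asxl1-MT2/T618I. The list includes the primary granule genes Mpo, Ctsg and Elane, so this is not a sum of stem cell genes alone. In Empty/Empty, Ctsg was at 3434 ± 288 CPM and Elane at 1120 ± 38.2. Gata2 is on this list and among the mast cell markers. Other lists share genes too, so their counts are not separate from each other. Lcn2 and Itgam are on the granule list and that of binding partners, and Cd177 is a granule gene and a neutrophil marker. Il1r2, Csf1r, Cd44 and Kit are on the list of shed surface proteins and on another list. The part of all these markers in the protease levels was not tested.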

How the data were processed

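RNA of 12 libraries was sequenced. The authors deposited 1 table of raw counts per gene symbol. The submitters' processing notes name Trimmomatic, STAR, DESeq2 and the build mm10, and no version or role. The counting tool, annotation and strand setting are not given in the sources used here. Columns name group and letter, titles number the libraries, and nothing links these, so groups came from titles.

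edgeR 4.0.16 in R 4.3.3 fitted 1 mean per group to all 12 libraries (TMM factors 0.919 to 1.03, filterByExpr, quasi-likelihood test, Benjamini-Hochberg adjustment over 11578 genes, which hold 99.94% of the counts). Total counts were 9341984 to 10252291 per library. Log2 CPM for correlations used a prior count of 2. In simulated data over 11421 genes, 67, 67 and 66 genes were changed 1.5-, 2.0- and 4.0-fold, in Asxl1-MT2/T618I only. The test between the T618I groups (Asxl1-MT2/T618I against Empty/T618I) recovered 70.1%, 98.5% and 100.0% of them and called 7 unchanged genes. The interaction test recovered 29.9%, 89.6% and 100.0% and called 9 unchanged genes. The changed genes lay above a minimum mean level that Mmp25 and Mmp14 do not reach. Many more genes were called in the real data, so these shares may not carry over. Alternatives were RLE factors, library totals, other filters, DESeq2 1.42.0, limma-voom 3.58.1, a block by letter, the 2 groups alone, and each library left out.

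The rule for naming took the 8 members and up to 3 called genes with the largest change per list and comparison. It also took called proteases and inhibitors, and the 3 genes most correlated with each tested member. Not every gene that this rule gives is named in the text. Serpinb2, Retnlg, Slc11a1 and Hoxa9 are among those left out. Named neighbours on the chromosome, Mmp24, Adam10, Adam17 and further examples were chosen after their values were seen. The members and lists were chosen with earlier results of these data known.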

Additional observations from a re-analysis of the deposited data

Results flagged for a closer look

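For 6 genes the effect of Asxl1-MT2 differed between cells with and without T618I by a test of the difference itself, the edgeR interaction term. An upward difference was also called for all 15 tested granule genes, all 7 neutrophil markers and 14.1% of all genes tested. It is therefore not particular to these 6 genes. The difference of log2 fold changes was 4.75 for Mmp8 (from 6.18 to 2.18 CPM without T618I and from 201 to 1919.5 CPM with it) and 5.32 for Mmp9 (from 4.33 to 1.22 CPM and from 67.1 to 765 CPM). For Timp2 it was 2.58 (from 1.18 to 2.28 CPM and from 5.48 to 63.1 CPM), and for Adam8 1.74 (from 10.8 to 13.5 CPM and from 72.5 to 303 CPM). Mmp19 had a difference of 0.85 (from 34.4 to 39.7 CPM and from 39.0 to 81.1 CPM), with the reservation that Tmem198b overlaps it on the other strand. Mmp14 had a difference of 2.14 (from 2.25 to 1.75 CPM and from 0.601 to 2.06 CPM), which rests on 18 counts in Empty/T618I.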

How the results depend on the processing

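Of the values of single members under all alternatives, 966 kept direction and side of the threshold, 24 lost the call, 17 gained one and 12 changed sign. No member changed sign with RLE factors or library totals. For Asxl1-MT2/Empty against Empty/Empty, members called were 0, and 1 with library totals, 2 without a low-count filter, 2 with DESeq2, 2 in the 2 groups alone and 0 to 2 with 1 library left out. All genes called there were 215, and 359 without a filter, 386 without the 4 letter C libraries (chosen after seeing the data) and 60 to 276 with 1 library left out, lowest without Asxl1-MT2/Empty library A. The cause was not tested. Signs changed only for differences that were not called: Mmp14 in Asxl1-MT2/T618I against Asxl1-MT2/Empty (-0.0076 to 0.51 with 1 library left out), Mmp14 against Empty/Empty (0.12 without the letter C libraries, -0.38 to 0.13 with 1 left out) and Mmp19 in Empty/T618I against Asxl1-MT2/Empty (0.028 without the letter C libraries, -0.070 to 0.019 with 1 left out).

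Library totals in place of TMM factors moved the median of all genes to -0.12 on the log2 scale between the T618I groups, -0.12 against Asxl1-MT2/Empty and -0.14 against Empty/Empty. The share of higher calls moved from 57.8% to 39.2%, from 54.1% to 40.5% against Asxl1-MT2/Empty, from 54.4% to 39.0% against Empty/Empty and from 71.9% to 48.5% for the interaction, where it was 60.1% without the letter C libraries. Same-letter libraries were fitted as unpaired. Over 18 such pairs their deviations correlated at -0.061 to 0.220, 7 over 0.1, and 6 of 12 libraries correlated best with their own letter. Outside Asxl1-MT2/T618I, A with A lay at 0.147 to 0.168, B with B at -0.023 to 0.045 and C with C at 0.181 to 0.220. A with C lay at -0.226 to -0.116 there, so some deviation was shared by letter. A replicate block by letter called 2 members in Asxl1-MT2/Empty against Empty/Empty (Mmp8 and Mmp9). All genes called there were then 204 higher and 113 lower, against 143 and 72 without the block. Depth limits Mmp25, Mmp14, Timp1, Mmp12, Mmp13 and Mmp27, whose group totals were 160 counts or fewer.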

Other observations

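Surface proteins that ADAM or other proteases can shed were counted as a list of 14 tested genes. Between the T618I groups 11 rose and none fell, against 25.4% and 18.5% of all genes tested (median log2 fold change 0.95, against 0.01 over all genes tested). Csf1r, the receptor of macrophage colony-stimulating factor, went from 15.5 ± 4.32 CPM in Empty/T618I to 87.4 ± 20.9 in Asxl1-MT2/T618I, and Il6ra, a receptor chain for interleukin 6, from 15.4 ± 1.72 to 73.4 ± 20.3 CPM. With T618I alone 7 rose and 4 fell, against 17.6% and 15.9% of all genes tested (median 0.56, against 0.00). Il1r2, the decoy receptor for interleukin 1, rose by 2.93 ± 0.148 on the log2 scale (edgeR adjusted p = 1.88e-10) and Kit fell by 1.64 ± 0.102 (edgeR adjusted p = 2.01e-09).

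Of 11 tested genes of extracellular matrix, substrates of MMPs among them, 2 (Fbn1 and Col1a1) passed the filter on low counts only through Asxl1-MT2/T618I or Empty/Empty. Between the T618I groups 5 of the 9 others rose and 1 fell (median log2 fold change 0.77), against 25.4% and 18.5% of all genes tested. With T618I alone, 5 of the 10 other than Col1a1 rose and 1 fell, against 17.6% and 15.9% of all genes. The median was 1.31 over these 10, 0.23 over the 11 with Col1a1 and 0.00 over all genes tested. Col5a1, a fibrillar collagen chain, was at 2.11, 2.00 and 2.40 CPM in Empty/T618I and 44.6, 31.5 and 24.1 in Asxl1-MT2/T618I. Thbs1, thrombospondin, followed another course, at 1830 ± 405 CPM with empty vectors, 189 ± 91.4 with T618I alone, 3100 ± 256 with Asxl1-MT2 alone and 1031 ± 146 with both. It fell by 3.28 ± 0.280 with T618I alone (edgeR adjusted p = 7.85e-08) and rose by 2.45 ± 0.271 between the T618I groups (edgeR adjusted p = 1.71e-06).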
